A study of Mustela putorius furo and Mus musculus with 4 samples.

Results

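The fatty acid-binding protein genes of cultured astrocytes described here were Pmp2, Fabp3, Fabp4, Fabp5 and Fabp7. They were chosen by symbol, without regard to case, among the FPKM values of 2 libraries from ferret astrocytes and 2 libraries from mouse astrocytes. In FPKM, the fragments of a gene are divided by its exon length and by the mapped fragments of the library. All 5 genes were listed among the 55139 gene symbols of the mouse, and 4 of them among the 14584 symbols of the ferret. The ferret values used here hold no row under the name Fabp5. The 5 genes were chosen with the values of these libraries known, Pmp2 for its high level in ferret astrocytes, so their levels, differences and shares between the species are given as a description with no test.

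Both groups were primary astrocytes from the cerebral cortex. The ferret cells came from animals of postnatal day 1 and the mouse cells from ICR mice of postnatal day 1 to 3. In both species, mixed glia were grown for 14 days with fetal bovine serum, shaken for 12 h, replated, and kept without serum from day 3 to day 7 after plating in a medium with heparin-binding EGF-like growth factor. The glia of 1 ferret pup filled 4 flasks and those of 4 mouse pups filled a single flask, and the methods do not say whether the duplicate libraries came from separate cultures. Species, genome annotation and culture cannot be told apart in this design, and p-values below measure only the spread between these 4 libraries.

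Fatty acid-binding proteins are small cytosolic proteins that hold a long-chain fatty acid in a barrel-shaped pocket and carry it to membranes, enzymes and nuclear receptors. Fabp7, the brain type, is a marker of radial glia and young astrocytes. Pmp2 is the P2 protein of peripheral myelin, made by Schwann cells. The paper cites earlier reports of its expression in human astrocytes and its absence from those of the mouse. By western blot of cultures kept with serum, the paper found more PMP2 protein in ferret than in mouse astrocytes. Fabp3 is the heart type, Fabp4 the adipocyte and macrophage type, and Fabp5 the epidermal type, which carries ligands to the nuclear receptor PPAR delta.

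The coding sequences of the members are alike, which bears on whether a read can be assigned to one of them. The mouse coding transcripts of GENCODE M21 on GRCm38 hold 132 codons for Pmp2, Fabp4 and Fabp7, 133 for Fabp3 and 135 for Fabp5. The most conserved stretch of 60 aligned bases is shown for each member, with capitals for the 33 bases that are the same in all 5 genes. It spans coding bases 49 to 108, counted from the A of the start codon, and bases 55 to 114 in Fabp5.
Pmp2: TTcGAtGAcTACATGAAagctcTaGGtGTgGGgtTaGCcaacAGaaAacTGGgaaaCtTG
Fabp3: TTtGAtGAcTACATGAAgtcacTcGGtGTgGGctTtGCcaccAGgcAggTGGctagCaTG
Fabp4: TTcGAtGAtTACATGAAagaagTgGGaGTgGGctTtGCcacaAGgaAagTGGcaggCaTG
Fabp5: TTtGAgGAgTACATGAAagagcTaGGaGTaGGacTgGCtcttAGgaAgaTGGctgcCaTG
Fabp7: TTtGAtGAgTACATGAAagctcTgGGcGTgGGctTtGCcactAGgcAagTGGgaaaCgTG
Over the whole coding sequence, Pmp2 was most alike to Fabp4, with 71.2% of aligned bases the same, and least alike to Fabp5, with 60.4%. The lowest identity of the 10 pairs was 55.3%, between Fabp5 and Fabp7.

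The capitals fall into short runs, whereas a read covers more bases than the whole stretch shown. No window of the length of a read in the Fabp4 or the Fabp7 transcript was found in a transcript of another mouse gene. Such windows made up 21.6% of the Fabp3 transcript, all in the processed pseudogene Fabp3-ps1, whose sequence matched 99.2% of the Fabp3 coding bases. They made up 8.9% of the Fabp5 transcript, all of them also in the processed pseudogene Gm6166. For Pmp2 they made up 86.1%, all in Gm37389, an annotated gene that overlaps Pmp2 on the same strand and reaches to Fabp9. The mouse values of Fabp3, Fabp5 and Pmp2 are therefore uncertain to the extent that the authors' quantification split reads with these pseudogenes or this overlapping gene. Gm37389 was at 1.68e-06 and 4.41e-07 FPKM in the 2 mouse libraries, so adding it to Pmp2 leaves the Pmp2 level as it stands. Fabp3-ps1 was at 2.35 and 1.98 FPKM and Gm6166 at 8.88 and 10.9 FPKM in the mouse libraries. Ferret sequences were not analysed here.

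In the mouse genome (GRCm38), Fabp5, Pmp2, Fabp9, Fabp4 and Fabp12 lie within 288.6 kb of chromosome 3. Pmp2 spans chr3:10179851-10183929 on the minus strand, Fabp4 chr3:10204088-10208576 on the minus strand, and Fabp5 chr3:10012548-10016607 on the plus strand. Fabp3 lies apart on chromosome 4, at chr4:130308595-130315463 on the plus strand, and Fabp7 on chromosome 10, at chr10:57784881-57788450 on the plus strand. Each of the 5 genes has 4 exons in the transcript used.

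The mix of the family differed between the species. Among the members with a ferret row, 3 shared the ferret total, with Fabp7 in front and Fabp3 and Pmp2 behind it. In mouse astrocytes Fabp7 made up most of the total, Fabp5 followed, and Pmp2 was close to 0. The sum of the members was 353.8 and 351.2 FPKM in the ferret duplicates, and 1411.8 and 1455.2 FPKM in those of the mouse. Over the 4 members that both species list, the mouse sums were 1242.5 and 1281.8 FPKM. As the ferret sum holds no Fabp5, the sum over the 4 shared members is the one that covers the same genes.

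**Figure D1:**
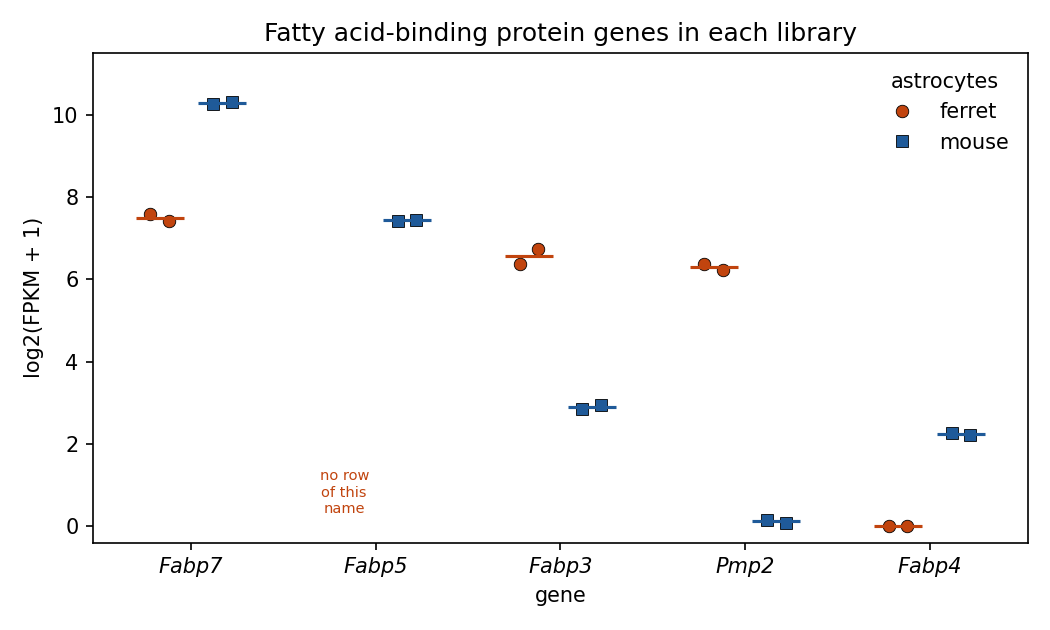
The plot gives log2(FPKM + 1) of each fatty acid-binding protein gene in each of the 2 ferret libraries (circles) and 2 mouse libraries (squares), with a line at the mean. Fabp7 and Fabp4 lie lower and Fabp3 and Pmp2 higher in ferret than in mouse astrocytes, with no overlap, and the ferret values hold no row named Fabp5.

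Pmp2 had 82.0 FPKM in ferret replicate 1 and 74.4 FPKM in ferret replicate 2. In the mouse libraries it had 0.116 and 0.058 FPKM. Both ferret libraries were far above both mouse libraries, and the mouse values were close to 0. The mean was 78.2 ± 5.38 FPKM (SD, n = 2) in ferret and 0.087 ± 0.041 FPKM (SD, n = 2) in mouse astrocytes, a difference of 6.19 in log2(FPKM + 1) with a standard error of 0.077. As the mouse level is near 0, the pseudocount sets the size of this difference, which was 8.72 with 0.1 in place of 1. Pmp2 stood at rank 450 and 560 of the 13373 symbols shared by the species in the ferret libraries, and at rank 11029 and 11395 in the mouse libraries. Within a ferret library the level of Pmp2 was 0.431 and 0.436 times that of Fabp7, so this ratio was nearly the same in the duplicates.

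Fabp3 had 81.4 FPKM in ferret replicate 1 and 106.3 FPKM in ferret replicate 2. In the mouse libraries it had 6.20 and 6.70 FPKM. The groups did not overlap, and Fabp3 had the widest spread in FPKM between ferret duplicates of the members with a ferret row. The mean level was 93.9 ± 17.6 FPKM (SD, n = 2) in ferret and 6.45 ± 0.351 FPKM (SD, n = 2) in mouse astrocytes, 14.5-fold higher in the ferret, and the difference in log2(FPKM + 1) was 3.66 with a standard error of 0.109. In rank, Fabp3 moved from 6867 and 6665 in the mouse to 459 and 328 in the ferret libraries. With Fabp3-ps1 added, the mouse level of Fabp3 stayed under 10 FPKM in each library.

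Fabp7 had 190.4 FPKM in ferret replicate 1 and 170.5 FPKM in ferret replicate 2. The mouse libraries had 1232.4 and 1271.4 FPKM. Both ferret libraries were below both mouse libraries, yet Fabp7 was the highest listed member in all 4, with Fabp5 unlisted in the ferret. The mean level was 180.4 ± 14.1 FPKM (SD, n = 2) in ferret and 1252 ± 27.6 FPKM (SD, n = 2) in mouse astrocytes, 6.94-fold higher in the mouse, and the difference in log2(FPKM + 1), ferret minus mouse, was -2.79 with a standard error of 0.070. Fabp7 was at rank 11 of the 13373 shared symbols in both mouse libraries and at rank 135 and 168 in the ferret libraries.

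Fabp5 was measured in mouse astrocytes alone, at 169.4 and 173.4 FPKM in the 2 libraries. This made it the member next to Fabp7 in the mouse. Its level would place it at rank 226 and 224 among the shared symbols, although it is not a shared symbol itself. That the ferret values hold no row of this name says nothing of its level there. Of 16 genes that every cell uses, 5 likewise have no row under their name in the ferret values, among them Eef1a1, Rpl4, Hprt and Tuba1b.

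Fabp4 is listed at 0 in both ferret libraries and had 3.78 and 3.62 FPKM in the mouse libraries. It was the lowest ferret member with a row, and in the mouse it stood below Fabp3 and above Pmp2. An exact 0 in FPKM can be a failed estimate, and no fold is given for this gene.

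All 4 members that both species list passed the filter on low values, a mean of at least 1 FPKM in at least one species. All 4 met the call limits of the fit across all genes, a Benjamini-Hochberg adjusted p under 0.05 by limma and a difference above 1 in log2(FPKM + 1), with 2 higher and 2 lower in ferret astrocytes. The same limits were met by 43.2% of the 10204 genes tested, 13.1% higher and 30.1% lower in ferret astrocytes. Since the members were chosen from this contrast, nothing is read from their count. A gene that passed the filter through a single species, as Pmp2 and Fabp4 did, could be called in that direction alone. The median difference of all genes was -0.35. Once each library was brought to an equal FPKM total over shared symbols, this median was -0.0019, and 1967 genes were called higher and 2215 lower in place of 1336 and 3069, so that 47.0% rather than 30.3% of the called genes were higher in ferret astrocytes. The members kept their directions under this rescaling, with differences of 6.41 for Pmp2, 4.02 for Fabp3 and -2.40 for Fabp7.

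Shares within a library do not change when the library is rescaled. The ferret sum holds no Fabp5. In the ferret libraries Fabp7 made up 53.8% and 48.5% of the summed member FPKM, Fabp3 23.02% and 30.3%, and Pmp2 23.2% and 21.2%. In the mouse libraries Fabp7 made up 87.3% and 87.4%, Fabp5 12.0% and 11.9%, Fabp3 0.439% and 0.460%, Fabp4 0.268% and 0.249%, and Pmp2 0.0082% and 0.0040%. In the ferret Fabp7 thus held close to the share that Fabp3 and Pmp2 held together, and no other member shared by the species reached 1% in the mouse. When the sum was taken over the 4 members that both species list, a choice made after seeing the data, the share of Fabp7 in the mouse was 99.2% in both libraries and that of Fabp3 was 0.499% and 0.523%.

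**Figure D2:**
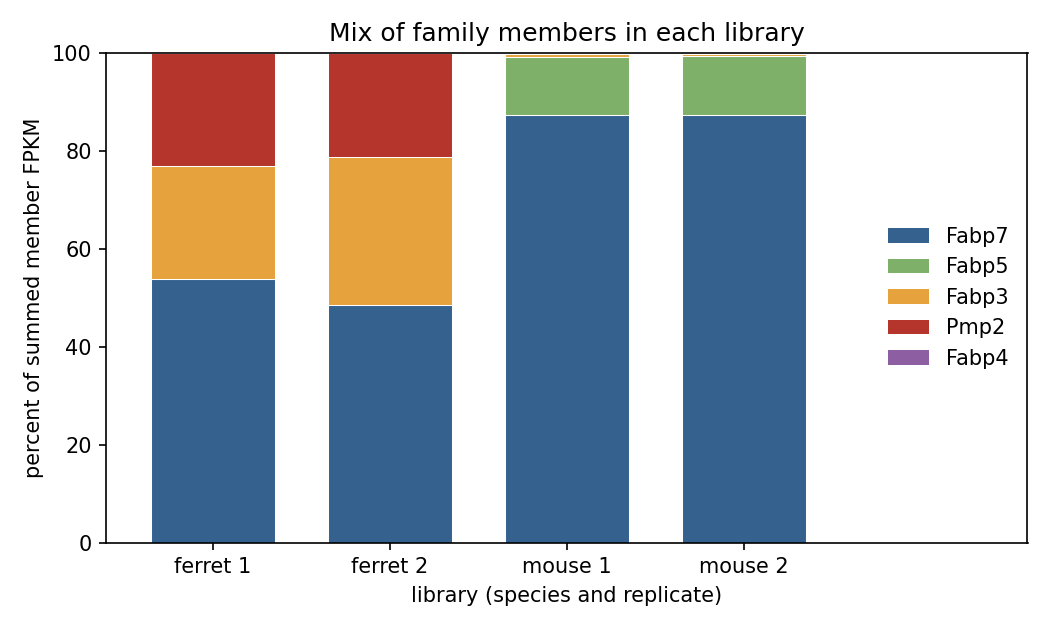
Each bar is 1 library and shows the percent of the summed FPKM of the fatty acid-binding protein genes that each member made up, from 0 to 100. Fabp7 fills 53.8% and 48.5% of the ferret bars and 87.3% and 87.4% of the mouse bars, the mouse shares of Fabp3, Fabp4 and Pmp2 are each under 1%, and the ferret bars hold no Fabp5.

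The order of the members by level was Fabp7, Fabp5, Fabp3, Fabp4, Pmp2 in both mouse libraries, with no overlap between neighbours. Among the members with a row in the ferret libraries, Fabp7 was first and Fabp4 last. Pmp2 and Fabp3 could not be ordered there, as their ratio was 1.01 in replicate 1 and 0.700 in replicate 2. The ratio of Fabp7 to Fabp3 was 2.34 and 1.60 in the ferret and 199 and 190 in the mouse libraries. Levels of different genes are compared here per length of the gene model, and models of unequal completeness enter the ratios between species. Their part in the values was not tested.

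The rest of the family was near 0 in both species. Fabp1, of the liver, and Fabp6, of the ileum, are listed at 0 in all 4 libraries. Fabp2, of the intestine, is listed at 0 in 3 libraries and at 0.135 FPKM in ferret replicate 2. Fabp9, of the testis, had 0.349 and 0.082 FPKM in the ferret duplicates and is listed at 0 in both mouse libraries. Fabp12 stayed between 0.031 and 0.071 FPKM in all 4. The cellular retinoid-binding proteins share the same fold. Of the 3 that could be tested, all 3 were called lower in ferret astrocytes, against 30.1% of all genes. Crabp1 among them passed the filter on low values through the mouse level alone and could be called in that direction only. Crabp1 had 0.048 and 0.056 FPKM in the ferret and 3.01 and 2.33 FPKM in the mouse libraries (adjusted p = 5.57e-08 by limma). Crabp2, which carries retinoic acid to its receptor, had 13.3 and 12.3 FPKM in the ferret and 35.9 and 37.1 FPKM in the mouse libraries, a difference of -1.45 in log2(FPKM + 1). Rbp2 and Rbp7 are listed at 0 in both ferret libraries and stayed under 1 FPKM in the mouse, and Rbp5 was not listed by both species.

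Genes at the neighbouring positions of Pmp2 in the mouse genome were named after their values were seen. Fabp9, Fabp4 and Fabp12, at 9.69, 20.2 and 60.3 kb from Pmp2, did not share its high level in ferret astrocytes. Impa1, which encodes inositol monophosphatase, lies 128 kb away and had 23.8 and 24.7 FPKM in the ferret and 24.98 and 23.9 FPKM in the mouse libraries (difference of -0.01 in log2(FPKM + 1), standard error 0.062, adjusted p = 0.863 by limma). Zfand1 had 2.24 and 2.35 FPKM in the ferret and 14.7 and 15.7 FPKM in the mouse libraries and was called lower (difference of -2.30). Snx16, a sorting nexin, had 2.52 and 1.98 against 6.09 and 5.35 FPKM and was called lower as well (difference of -1.05). Chmp4c was under 1 FPKM in all 4 libraries and was not tested. Of the genes within 250 kb that both species list, only Pmp2 was higher in both ferret libraries than in both mouse libraries by more than 1 in log2(FPKM + 1).

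**Figure D3:**
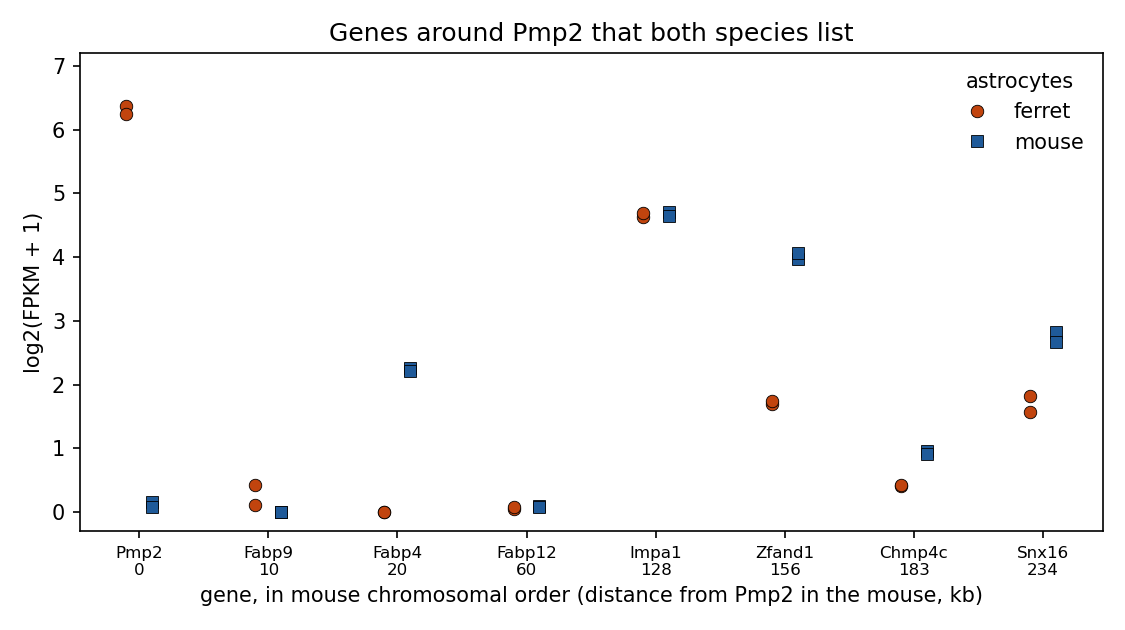
The plot gives log2(FPKM + 1) in each ferret library (circles) and mouse library (squares) for Pmp2 and the 7 other protein-coding genes within 250 kb of it in the mouse that both species list, in mouse order with the distance from Pmp2 in kb under each name. Pmp2 stands at 82.0 and 74.4 FPKM in the ferret, and no other gene of the plot reaches 25 FPKM in the ferret libraries.

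Likeness of pattern was measured over the 10204 genes tested and the 4 libraries, by the Euclidean distance in log2(FPKM + 1). Among the genes with the pattern most like Pmp2 were Pam, an enzyme that amidates peptides, at a distance of 0.289, and Pygm, the muscle glycogen phosphorylase, at 0.667. Pam had 86.1 and 87.1 FPKM in the ferret duplicates and at most 0.0079 FPKM in those of the mouse. For Fabp3 the nearest genes were Cdh13 (0.184), Cadm3 (0.269) and Ttc39c (0.469), of which Cdh13 and Cadm3 encode cell adhesion proteins. The genes nearest to Fabp7 lay farther off, with Lgals1 at 0.509, Tagln at 0.858 and Prdx6 at 1.22. The genes nearest to Fabp4 were Folr1, Twist2 and Nrk, which are all listed at 0 in both ferret libraries and lay between 3.55 and 3.90 FPKM in the mouse. With 4 libraries these distances describe the level in each species, and they rank genes for likeness only.

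The partners of the family in lipid handling were examined from lists of genes. In the list of fatty acid uptake and activation, 13 of 18 genes were listed by both species and 10 were tested, of which 2 were called higher and 5 lower in ferret astrocytes, and 3 were not called, beside 13.1% higher and 30.1% lower among all genes. The median difference was -0.95, against -0.35 over all genes. Mfsd2a, a transporter of lysolipids that carry docosahexaenoic acid, had 0.762 ± 0.074 FPKM (SD, n = 2) in ferret and 66.9 ± 2.87 FPKM (SD, n = 2) in mouse astrocytes, a difference of -5.27 in log2(FPKM + 1). Acsbg1, an acyl-CoA synthetase of brain and gonads, had 3.95 ± 0.099 and 147 ± 5.34 FPKM (SD, n = 2 each), a difference of -4.90 (adjusted p = 8.15e-12 by limma). Acsl5 was called lower too, at 3.37 ± 0.046 FPKM in ferret and 18.8 ± 3.96 FPKM in mouse astrocytes (SD, n = 2 each). The synthetases Acsl1, at 13.8 ± 0.376 and 5.40 ± 0.0041 FPKM, and Acsl4, at 18.7 ± 0.601 and 8.40 ± 0.468 FPKM (ferret and mouse, SD, n = 2 each), were higher in ferret astrocytes by 1.21 and 1.07 in log2(FPKM + 1).

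Fatty acid-binding proteins hand ligands to the PPAR nuclear receptors. In the list of PPAR receptors, partners and targets, 16 of 20 genes were tested, of which 2 were called higher, 6 lower and 8 not called, close to the 13.1% and 30.1% of all genes, with a median difference of -0.56. The 3 receptors, named for their role after their values were seen, gave no call. Ppard had 11.3 and 12.6 FPKM in the ferret and 10.0 and 11.2 FPKM in the mouse libraries, Ppara had 2.37 and 2.05 against 1.31 and 1.23 FPKM, a difference of 0.50 that was under the limit of 1, and Pparg stayed under 1 FPKM and was not tested. Among the targets, Angptl4, a secreted inhibitor of lipoprotein lipase, had 185.5 and 210.3 FPKM in the ferret and 6.60 and 6.41 FPKM in the mouse libraries, a difference of 4.73 in log2(FPKM + 1) with a standard error of 0.071 (adjusted p = 1.94e-11 by limma). The retinoid X receptor Rxrg was higher as well, at 3.76 and 3.93 against 0.278 and 0.373 FPKM. In the other direction, Ucp2, a mitochondrial carrier, had 2.09 and 1.98 FPKM in the ferret and 163.7 and 163.7 FPKM in the mouse libraries. Acadl, an acyl-CoA dehydrogenase of fatty acid oxidation, was lower by a difference of -4.99 and Ppargc1a, a coactivator, by -2.75. The targets thus did not move in one direction.

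In the list of lipid droplet storage and lipolysis, 17 of 23 genes were tested, of which 1 was called higher, 8 lower and 8 not called, beside 13.1% and 30.1% of all genes. The median difference was -0.85, against -0.35 over all genes. Plin2, the coat protein of droplets, had 17.8 and 20.3 FPKM in the ferret and 136 and 125 FPKM in the mouse libraries, a difference of -2.72 in log2(FPKM + 1). Mgll, which releases the last fatty acid from monoglycerides, was lower by a difference of -2.81, and Cidea, a droplet fusion protein, had at most 0.0058 FPKM in the ferret and 9.58 and 9.98 FPKM in the mouse libraries. Plin3 was the gene called higher, at 45.5 and 51.8 against 17.6 and 18.1 FPKM. Pnpla2 and Bscl2 of this list and Slc27a1 of the uptake list were no longer called at equal FPKM totals, and Lipe and Pnpla3 were then called higher.

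Of the regulators reported for Fabp7 or Pmp2, 14 were tested, of which 2 were called higher, 0 lower and 12 not called in ferret astrocytes, beside 13.1% and 30.1% of all genes. The median difference was 0.30. With a pseudocount of 0.1, 3 genes of this list were called higher, and Notch3 was called lower. Sox10, which drives genes of peripheral and central myelin, had 26.3 and 31.0 FPKM in the ferret and 0.231 and 0.304 FPKM in the mouse libraries, a difference of 4.54 with a standard error of 0.091 (adjusted p = 8.38e-11 by limma). Pou3f2, a POU factor of neural progenitors, had 11.7 and 13.5 against 4.86 and 5.11 FPKM. Pax6 and Notch1, reported to drive Fabp7 and singled out after their values were seen, had 19.7 and 17.8 against 14.4 and 18.3 FPKM, and 15.9 and 17.2 against 16.2 and 15.6 FPKM. The groups overlapped for both genes.

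**Figure D4:**
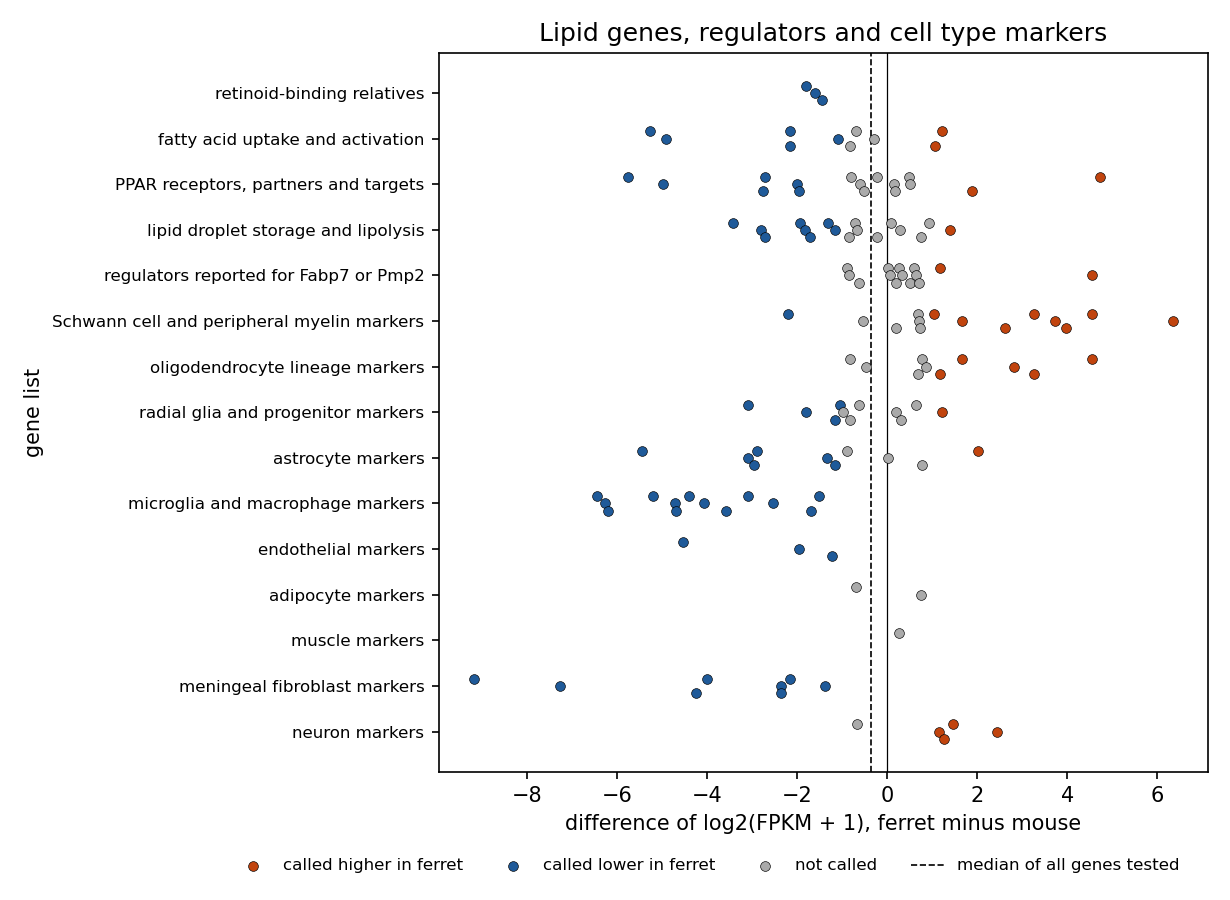
Each point is 1 gene and shows its difference in log2(FPKM + 1), ferret minus mouse, by list, colored by whether it was called higher, called lower or not called, with a dashed line at the median of all genes tested (-0.35). The Schwann cell list holds 8 genes called higher and 1 lower, and all 13 microglial genes lie to the left of the dashed line.

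Markers of other cell types moved with several members. In bulk libraries fewer cells of a type and less RNA per cell cannot be told apart. By staining, the paper found nearly all cells of both cultures to be astrocytes, with few microglia in both species and few neurons in the ferret. Those cells were kept with serum, unlike the cells of the libraries, and cell counts and RNA levels are unlike measures. With Pmp2 moved the Schwann cell and peripheral myelin list, in which 8 of 14 genes tested were called higher and 1 lower in ferret astrocytes, against 13.1% and 30.1% of all genes, with a median difference of 1.34. The sum of its 15 genes listed by both species was 343 and 359 FPKM in the ferret and 190.4 and 203 FPKM in the mouse duplicates, and no gene of it was at 0 in both libraries of a species. Besides Sox10, Erbb3, the neuregulin receptor of Schwann cells, had 18.4 and 21.1 FPKM in the ferret and 0.319 and 0.325 FPKM in the mouse libraries. Sox10 and Erbb3, like several others called higher, passed the filter on low values through the ferret level alone. Pmp22 went against this pattern, at 106.5 and 105.0 against 146.9 and 160.6 FPKM, and was not called. Prx, the periaxin of mature Schwann cells, had 2.18 and 2.29 against 0.979 and 0.904 FPKM, and Cdh19 was called lower at 1.23 and 1.20 against 9.61 and 8.69 FPKM. Ncmap lay at the edge of the limit, with a difference of 0.97 without ferret replicate 2. With a pseudocount of 0.1, 11 genes of this list were called higher, and after quantile normalization 10. Of the oligodendrocyte lineage list, which shares Sox10, Mbp and Mag among others with it, 5 of 10 genes were called higher and 0 lower, with Nkx2-2 at 10.8 and 11.6 against 0.692 and 0.808 FPKM. Olig2 had 4.92 and 5.18 FPKM in the ferret and 9.62 and 9.80 FPKM in the mouse libraries. The part of such cells in the Pmp2 level was not tested.

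With the mouse level of Fabp4 moved the markers of macrophages, which are known to make Fabp4. All 13 microglial and macrophage genes tested were called lower in ferret astrocytes, against 30.1% of all genes. Most of them passed the filter on low values through the mouse level alone. The 13 genes summed to 11.9 and 10.1 FPKM in the ferret and 697 and 689.97 FPKM in the mouse duplicates. Cx3cr1 was listed at 0 in both ferret libraries. Cd36, a fatty acid receptor of macrophages among other cells, had 0.058 and 0.058 FPKM in the ferret and 4.28 and 3.21 FPKM in the mouse libraries. Of 11 endothelial markers 3 were tested and called lower, against 30.1% of all genes, led by Cdh5 at 21.96 and 22.5 FPKM in the mouse. These 3 passed the filter through the mouse level alone. In the mouse libraries Pecam1 did not exceed 0.041 FPKM and Cldn5 was listed at 0. Of the adipocyte markers Adipoq and Lep stayed at or under 0.026 FPKM in all 4 libraries, and none of the 2 genes tested was called. All 8 meningeal fibroblast genes tested were called lower, against 30.1% of all genes, with sums of 129.9 and 115 against 1570 and 1558 FPKM. Lum and Serpinf1 of this list passed the filter through the mouse level alone. Serpinf1, at 629.8 and 653.2 FPKM, and Col3a1, at 401.6 and 375.3 FPKM, made up most of the mouse sums. The part of these cells in the Fabp4 level was not tested.

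Beside Fabp3, the muscle marker Myh6 stayed at or under 0.101 FPKM in all 4 libraries, Tnnt2 at or under 0.032, and the 1 gene tested, Tnni3, was not called. Of the neuron list, 4 of 5 genes tested were called higher and 0 lower in ferret astrocytes, against 13.1% and 30.1% of all genes. Most of the genes called passed the filter on low values through the ferret level alone. Among them was Nefl, at 4.42 and 5.68 against 0.137 and 0.092 FPKM. The sum of the list was 32.7 and 33.8 FPKM in the ferret and 32.6 and 33.7 FPKM in the mouse duplicates. Map2, the gene tested that was not called, made up the larger part of each sum. It had 18.8 and 19.0 FPKM in the ferret and 30.4 and 31.3 FPKM in the mouse libraries, so the like sums do not describe the other genes of the list. Rbfox3 did not exceed 0.084 FPKM in any library, and Snap25 stayed under 1 FPKM. The part of muscle cells or neurons in the Fabp3 level was not tested.

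With Fabp7, the radial glia list held 4 of 11 genes called lower and 1 higher in ferret astrocytes, against 30.1% and 13.1% of all genes. Prom1 had 0.386 and 0.287 against 9.82 and 10.9 FPKM and was called lower, and Lifr was the gene called higher. At equal FPKM totals, 2 genes of this list were called lower and 2 higher. Of the 10 astrocyte markers, 6 were called lower, 1 higher and 3 not called, against 30.1% and 13.1% of all genes, and at equal FPKM totals 4 were called lower and 2 higher. Gfap, the filament protein of astrocytes, had 1481 and 1522 FPKM in the ferret and 1429 and 1546 FPKM in the mouse libraries. It is 1 of these 10 markers, and its level alone does not establish the cell type. Among the 6 markers called lower, the glutamate transporter Slc1a2 was at 0.133 and 0.178 FPKM in the ferret against 47.1 and 51.8 FPKM in the mouse libraries.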

How the data were processed

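RNA-seq libraries were made from polyA-selected RNA with a stranded kit. The authors aligned reads with STAR 2.7.0f to the Ensembl genome of each species (MusPutFur1.0 and GRCm38, release 99) and deposited FPKM per gene from Cufflinks 2.2.1. These values hold no read counts, and the counts in the paper's supplement were not used here, so depth was not analysed. Steps between the lowest values give only the depth of replicate 1 relative to replicate 2, which was 1.17 in the ferret and 0.835 in the mouse.

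Symbols were matched in upper case, which left 13373 shared symbols. Where a symbol had several rows, the one with the highest species mean was used. Each member has 1 row per species, except Fabp5 in the ferret. Differences were computed on log2(FPKM + 1), a scale that understates changes of low genes, with limma 3.58.1, run in R 4.3.3 with moderated variances that follow the mean level, for 10204 genes with a mean of at least 1 FPKM in at least one species. A call needed an adjusted p (Benjamini-Hochberg) under 0.05 together with a difference above 1 in size. On simulated data with 9877 genes tested, the fit called 100% of the 200 genes changed by 1.5 and 0 of the unchanged genes. The simulation gave every gene the same spread, taken from the mouse duplicates. It changed only genes of higher level and held no shift between the species, so it gives no error rate for these data. An exact permutation test of 2 against 2 libraries cannot reach 0.05, so none was run.

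Members and lists were chosen with earlier results of these data known. The text names all members, the other family genes and retinoid-binding relatives, up to 3 genes called in each direction per list, the first 3 markers of other cell types, and the 3 genes nearest to each member in pattern. The lists were fatty acid uptake and activation, PPAR genes, lipid droplet genes, regulators, and markers of Schwann cells, oligodendrocytes, radial glia, astrocytes, microglia, endothelium, adipocytes, muscle, meningeal fibroblasts and neurons. Genes around Pmp2 and genes sharing sequence with members were added after the values were seen. Mouse loci and transcripts came from GENCODE M21, another release than the authors used, and coding sequences were aligned with MAFFT 7.526. Some genes that these rules select are not reported here. Alternatives are given in the closing section.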

Additional observations from a re-analysis of the deposited data

How the results depend on the processing

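With a pseudocount of 0.1, the difference of Pmp2 was 8.72 and that of Fabp3 3.83. At equal FPKM totals over shared symbols, the differences were 6.41 for Pmp2, 4.02 for Fabp3 and -2.40 for Fabp7. After quantile normalization they were 6.38, 4.04 and -2.52, and 2080 genes were called higher in ferret astrocytes. With each library left out in turn, the differences ranged from 6.12 to 6.25 for Pmp2, from 3.47 to 3.85 for Fabp3 and from -2.87 to -2.71 for Fabp7. Fabp4, listed at 0 in the ferret, was lower there under each alternative, with a size that the pseudocount sets (-2.23 with 1 and -5.25 with 0.1). Without Fabp7 in the sum, the mean shares in the ferret were 45.7% for Pmp2 and 54.3% for Fabp3, and in the mouse 94.4% for Fabp5, 3.55% for Fabp3, 2.04% for Fabp4 and 0.048% for Pmp2. Over all family genes that both species list, the mouse shares were 99.2% for Fabp7, 0.511% for Fabp3 and 0.293% for Fabp4, and they were the same to these digits over the 4 members listed by both, a sum chosen after seeing the data. These moves follow from the genes in the sum.

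The replicate numbers of the labels are shared by both species. Same-numbered libraries did not deviate together (correlation of 0.0099 over 10204 genes, which are not independent replicates). With only duplicates in each species, this cannot tell whether same-numbered libraries shared a preparation or a run. With the replicate number as a block, 1342 genes were called higher and 3072 lower, and the members' differences were as without it.

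Among the lists, the lipid droplet list had 2 genes called higher with a pseudocount of 0.1 and 3 under either scaling, and 1 to 2 with each library left out. The regulators had 1 gene called lower with a pseudocount of 0.1, and 3 called higher with it and under either scaling, in place of 2. The Schwann cell list had 11 genes called higher with that pseudocount, 8 at equal FPKM totals and 10 after quantile normalization, in place of 8. The oligodendrocyte lineage list had 7 called higher under each of these, in place of 5. Under rescaling and quantile normalization the radial glia list had 2 genes called higher, with 2 and 1 called lower, the astrocyte list had 2 called higher and 4 lower, and the adipocyte list had 1. Of the list genes' values under the alternatives, 1199 kept their side of the call limits, 25 gained a call, and 15 lost one. The cause of these moves was not tested. Mouse Pmp2, ferret Fabp4 and the other family genes lie near 0, and no counting interval was computed for them from FPKM.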
